A study of Mus musculus with 6 samples.

Results

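The PRELI family genes and their partner Triap1 were followed in pancreatic islets of Vhlh knockout and control mice on Affymetrix arrays. The members are the 5 genes Prelid2, Prelid1, Prelid3a, Prelid3b and Triap1. Every probe set that the platform annotation gave exactly 1 of these symbols was taken, which gave 11 of the 45037 probe sets that measure transcripts. Prelid1 had 5 of them, Prelid2 and Prelid3a had 2 each, and Prelid3b and Triap1 had 1 each. The family was chosen by the p-value of a Prelid2 probe set in the comparison of VhlhKO with control, so its values below, and those of its relatives in the same comparison, are a description.

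RNA came from 3 VhlhKO and 3 control islet samples, 1 array each, numbered 01, 02 and 03 within each genotype. The VhlhKO mice had the floxed allele Vhlh(fl/fl) deleted by RIP2-Cre, a Cre recombinase driven by the rat insulin promoter, so the gene was to be lost in beta cells and kept in the other cells of the islet. The labels give this model for all 6 samples and call the second group control, without saying which of these alleles the controls carried. Samples 01 of both genotypes came from males of 26 weeks, samples 02 from females of 20 weeks and samples 03 from males of 18 weeks. The design text counts a sample as a batch of islets, and the number of animals behind a batch is not given in the sources used here, so the errors below measure the spread between these batches.

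PRELI family proteins sit in the space between the membranes of mitochondria and carry single phospholipid molecules from the outer to the inner membrane. In human cells, PRELID1 bound to TRIAP1 carries phosphatidic acid, the starting material of cardiolipin, which is the signature lipid of the inner membrane. PRELID3B bound to TRIAP1 carries phosphatidylserine, which the inner membrane converts to phosphatidylethanolamine. PRELID3A is a close relative of PRELID3B, and PRELID2 is the least studied of the family. The product of Vhlh (symbol Vhl) is the von Hippel-Lindau protein, a ubiquitin ligase component through which the alpha subunits of hypoxia-inducible factor (HIF) are destroyed while oxygen is plentiful.

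Sequence upstream of the members is shown because HIF binds DNA at a short core that is often written as ACGTG or GCGTG. A RefSeq table of build GRCm38.p6 held promoters of 3 of the 5 genes, Prelid1, Prelid3b and Triap1, and not of Prelid2 and Prelid3a. The 250 bases before the transcription start are printed 5′ to 3′ on the gene's strand, with matches to either core on either strand in capitals. The window of Prelid1 is chr13:55321805-55322054 on the plus strand, that of Prelid3b is chr2:174472942-174473191 on the minus strand, and that of Triap1 is chr5:115340981-115341230 on the plus strand.
Prelid1: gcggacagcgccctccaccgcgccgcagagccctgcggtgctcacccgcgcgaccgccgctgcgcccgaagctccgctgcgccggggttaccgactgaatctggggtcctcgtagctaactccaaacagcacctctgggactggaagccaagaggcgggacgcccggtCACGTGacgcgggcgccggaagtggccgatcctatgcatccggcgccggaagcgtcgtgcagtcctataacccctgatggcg
Prelid3b: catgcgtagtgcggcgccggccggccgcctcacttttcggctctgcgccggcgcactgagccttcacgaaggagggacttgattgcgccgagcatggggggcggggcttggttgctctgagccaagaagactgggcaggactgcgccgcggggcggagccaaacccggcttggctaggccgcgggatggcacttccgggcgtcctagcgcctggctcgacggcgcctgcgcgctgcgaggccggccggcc
Triap1: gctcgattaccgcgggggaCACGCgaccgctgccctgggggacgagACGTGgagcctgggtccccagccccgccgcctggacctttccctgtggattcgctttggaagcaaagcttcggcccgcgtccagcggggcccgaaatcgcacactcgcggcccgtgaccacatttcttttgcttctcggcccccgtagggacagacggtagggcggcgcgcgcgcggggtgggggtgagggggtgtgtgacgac
Prelid1 held 1 capital stretch, the palindrome CACGTG, which reads as ACGTG on both strands and starts 82 bases before the transcription start. Triap1 held 1 match to ACGTG on its own strand, starting 204 bases before the start, and 1 to GCGTG on the opposite strand, starting 231 bases before it. Prelid3b held 0 matches to either core in this window. Of all 32851 promoters in the table, 16.6% held ACGTG and 28.2% held GCGTG within the same 250 bases on either strand. The printed windows of Prelid1, Prelid3b and Triap1 held 33, 32 and 30 CpG dinucleotides, against a median of 6 over all promoters. Among the 1952 promoters with at least 30 CpG dinucleotides, 23.7% held ACGTG and 64.5% held GCGTG. A match to these letters is not a measured binding site.

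The arrays carry MAS5 signal intensity, a linear value per probe set that the authors scaled so that every array has the same trimmed mean. Array medians lay between 101.9 and 122.7 signal units. The label check was weak: the brighter Vhl probe set had 344, 358 and 467 units in VhlhKO samples, against 457, 639 and 839 units in control samples, with overlap between the groups. Whether these probes lie inside the floxed stretch was not analysed here. Of 12 beta cell markers, 10 had a probe set and all 10 were bright enough to be fitted, and their summed signal spanned 97459 to 167780 units in VhlhKO samples and 115984 to 163630 units in control samples. The summed signal of 10 acinar (exocrine) markers spanned 8709 to 489406 units in VhlhKO samples and 83859 to 391002 units in control samples, and samples 03 were the lowest of both genotypes. The summed signal of 11 fibroblast and matrix markers spanned 6907 to 23773 units in VhlhKO samples and 3509 to 7276 units in control samples, with VhlhKO 03 at the top.

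Prelid2 transcript was far more abundant in the islets of VhlhKO mice. Its brighter probe set, 1436194_at, had signals of 1595, 1219 and 1427 units in VhlhKO samples 01, 02 and 03, against 146, 179 and 216 units in control samples 01, 02 and 03. The groups lay far apart, the lowest VhlhKO signal being 5.65 times the highest control signal, while the highest and lowest samples differed by 1.31 times within VhlhKO and by 1.48 times within control. The mean log2 signal was 10.46 ± 0.20 in VhlhKO samples and 7.47 ± 0.28 in control samples (SD, n = 3 each). That is a 7.90-fold difference, or 2.98 on the log2 scale. Its standard error was 0.29 from limma, the linear model fitted to all probe sets that were bright enough. Without any 1 sample the difference stayed between 2.84 and 3.12, but the fit called it past its threshold only when the sample left out was VhlhKO 02, and no longer without VhlhKO 01 (2.89), VhlhKO 03 (2.97), control 01 (2.84), control 02 (2.99) or control 03 (3.12).

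The pairs with the same number, which share age and recorded sex, gave folds of 10.9 for number 01, 6.82 for number 02 and 6.61 for number 03. In the control islets the probe set was near the middle of the array: its signal was 1.31, 1.66 and 1.97 times the array median and exceeded 55.7% to 63.3% of probe sets. In the VhlhKO islets it was 14.3, 9.93 and 14.0 times the median and exceeded 87.3% to 89.9% of probe sets. Of the 23093 probe sets bright enough to be fitted, 13 had a larger positive difference.

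Markers of other cell types also differed between these samples. The summed signal of 10 endothelial markers spanned 11596 to 15293 units in VhlhKO samples and 9005 to 9708 units in control samples, without overlap, and the fibroblast and matrix sum given above was higher in each pair. The summed signal of 7 Schwann and neural markers was 1758, 3067 and 3711 units in VhlhKO samples. In control samples it was 1316, 1872 and 981 units, lower in each pair but with overlap. Its 3 brightest markers in each VhlhKO sample were Nefl, Nefm and Prph (log2 differences 1.96, 0.93 and 1.68). The other fitted ones were S100b (0.91, SE 0.66), Sox10 (0.32, SE 0.47) and Gfap (-0.88, SE 1.08). The part of these differences in the Prelid2 result was not tested, and in whole islets more cells of a type and more RNA per cell cannot be told apart. All 9 fitted endothelial markers and all 10 fitted fibroblast and matrix markers had positive log2 differences, as had 5 of the 6 fitted Schwann and neural markers, against 48.0% of all fitted probe sets. The medians were 0.61, 1.23 and 0.92 for the endothelial, the fibroblast and matrix, and the Schwann and neural markers. Without VhlhKO 03 all 10 fitted fibroblast and matrix markers had smaller differences that stayed positive, from 0.18 for Col1a1 to 1.46 for Col6a2. Of the fitted endothelial markers, Emcn (0.26) turned to -0.25 without VhlhKO 03, and the others stayed positive without any 1 sample. Tie1, the endothelial marker too dim to be fitted, was lower in VhlhKO in each pair (-0.23). Of these 3 lists, 0 markers passed the threshold, and no signal on any array was at 0. At an unadjusted limma p under 0.05 there were 1 endothelial marker, 4 fibroblast and matrix markers and 3 Schwann and neural markers. The last 3 were Nefl, Nefm and Prph, and 2.17% of all fitted probe sets had such a p. Of the other marker lists, all 10 acinar markers were lower in VhlhKO (median -1.08), and all turned positive without VhlhKO 03. The fitted alpha, delta and PP cell markers were higher in 5 of 5 (median 0.21) and the duct markers in 4 of 6 (0.24). Leukocyte markers were higher in 5 of 7 (0.30) and beta cell markers in 4 of 10 (-0.13).

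The second Prelid2 probe set, 1459603_at, was too dim to be fitted and lay below the array median on all 6 arrays. It had signals of 38.9, 99.4 and 79.6 units in VhlhKO samples, against 52.3, 64.0 and 7.87 units in control samples. The groups overlapped, and sample 01 was lower in VhlhKO while samples 02 and 03 were higher. Its log2 difference of 1.18 had a standard error of 0.89, taken from a fit without the brightness filter. It rests on control 03, without which it was 0.22, so this probe set neither repeats the size of the first nor bounds it. The 2 probe sets were designed from different expressed sequence tags, and which part of the transcript each covers was not analysed here.

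**Figure D1:**
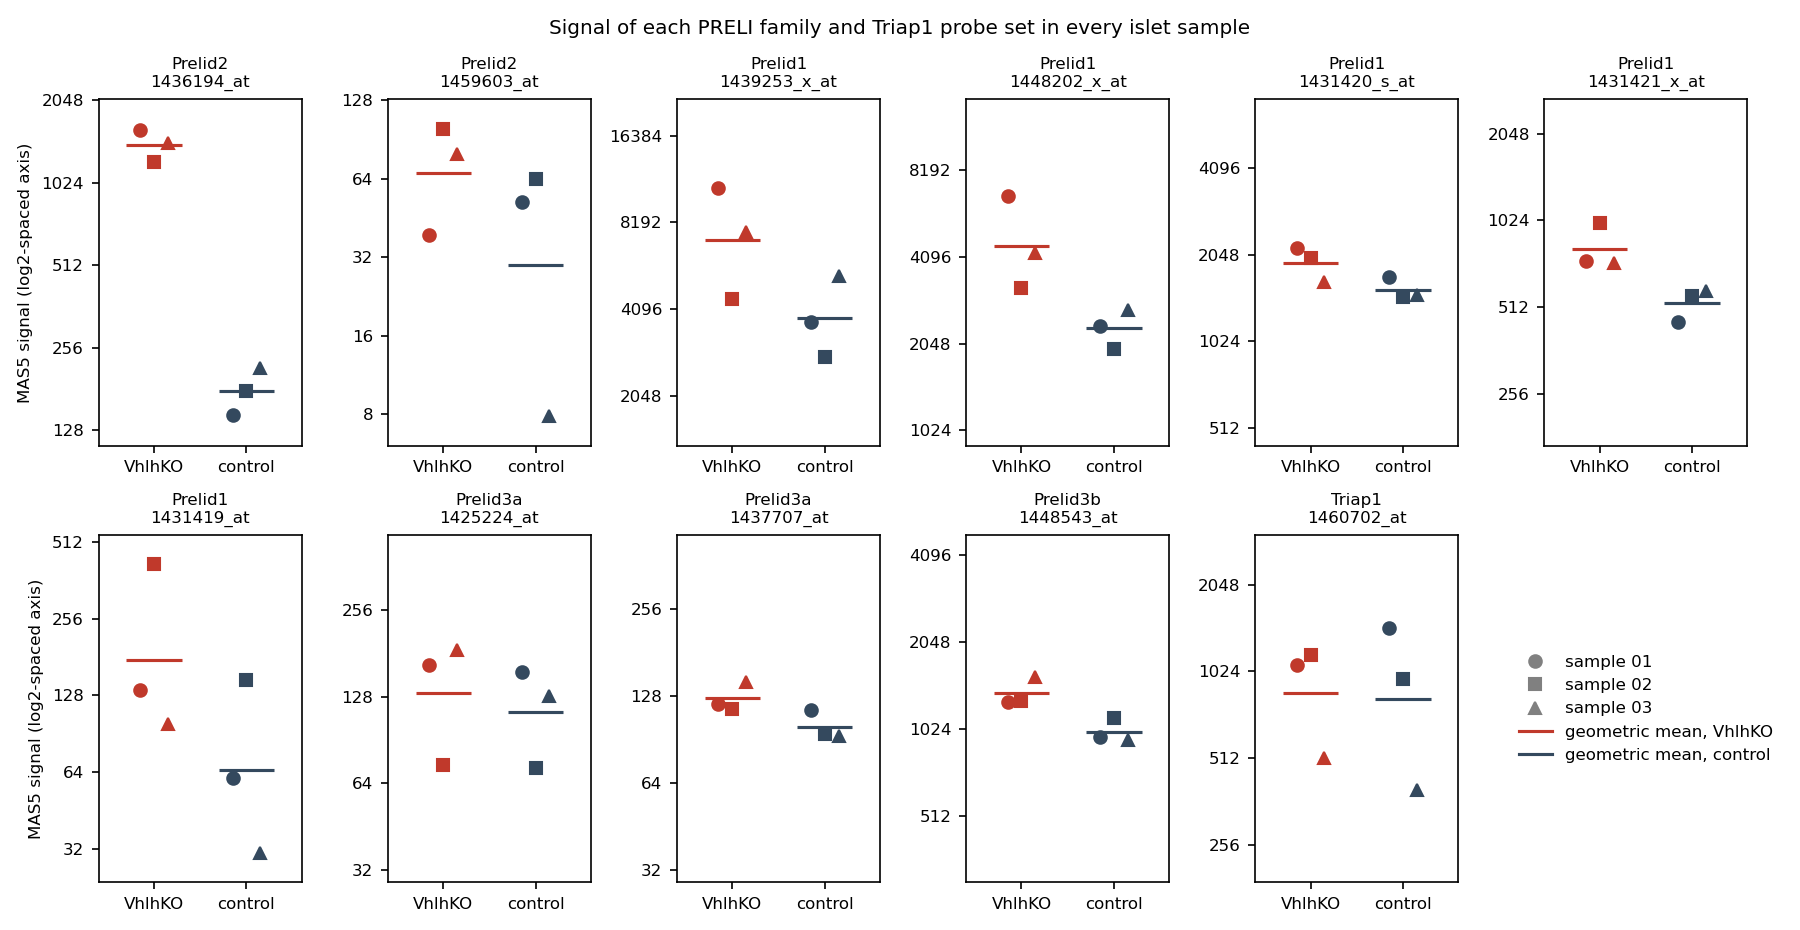
MAS5 signal (y axis, log2-spaced, in signal units, each panel with its own range) of the 11 member probe sets in the 3 VhlhKO samples (left, red) and the 3 control samples (right, blue). Marker shape gives the sample number and the horizontal line the geometric mean. The first Prelid2 panel has VhlhKO signals of 1219 to 1595 units above control signals of 146 to 216 units, while most other panels overlap or nearly touch.

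Prelid1, the carrier of phosphatidic acid, had higher mean signal in VhlhKO samples with all 5 of its probe sets, by amounts that differed between them and did not pass the threshold. The brightest, 1439253_x_at, had 10765, 4427 and 7578 units in VhlhKO samples, against 3689, 2803 and 5320 units in control samples. The groups overlapped, since VhlhKO 02 was below control 03. The next, 1448202_x_at, which was designed from the RefSeq transcript of the gene, had 6679, 3186 and 4213 units in VhlhKO samples, against 2364, 1958 and 2682 units in control samples, without overlap. Their log2 differences were 0.90 (SE 0.38) for 1439253_x_at and 0.95 (SE 0.33) for 1448202_x_at.

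These 2 probe sets ordered the samples alike: 01 above 03 above 02 in VhlhKO, and 03 above 01 above 02 in control. VhlhKO 01 stood highest with both and carried much of the difference, which was 0.61 for 1439253_x_at and 0.66 for 1448202_x_at without that sample. Their same-numbered pairs gave folds of 2.92, 1.58 and 1.42 for 1439253_x_at and of 2.82, 1.63 and 1.57 for 1448202_x_at. Names ending in _x_at mark probe sets whose probes can also bind related transcripts, so their signal may not be that of Prelid1 alone.

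The other 3 Prelid1 probe sets were designed from 1 expressed sequence tag and did not share that order. Of these, 1431420_s_at had 2156, 1987 and 1642 units in VhlhKO samples, against 1715, 1466 and 1480 units in control samples, with overlap and a log2 difference of 0.31 (SE 0.26). The dimmer 1431421_x_at had 739, 999 and 730 units in VhlhKO samples, against 456, 559 and 584 units in control samples. Here the groups did not overlap, VhlhKO 02 was the highest sample, and the log2 difference was 0.62 (SE 0.28).

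The dimmest, 1431419_at, had 134, 418 and 98.5 units in VhlhKO samples, against 60.5, 147 and 30.6 units in control samples. Sample 02 was by far the highest of each genotype, so the groups overlapped although each pair was higher in VhlhKO, and the log2 difference of 1.45 had a standard error of 0.75. It was above the array median on 3 of the 6 arrays, VhlhKO 01, VhlhKO 02 and control 02. The difference was 0.82 without VhlhKO 02 and 2.04 without control 02. The 5 probe sets of this 1 gene gave differences between 0.31 and 1.45.

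Prelid3a, a relative of the phosphatidylserine carrier, was near the array median in both genotypes. Its probe set 1425224_at had 165, 74.3 and 186 units in VhlhKO samples, against 155, 72.3 and 129 units in control samples, with a log2 difference of 0.22 (SE 0.54). Sample 02, from females of 20 weeks, was the lowest of each genotype and nearly the same in both, and the groups overlapped. The difference was -0.10 without control 02 and -0.03 without VhlhKO 03, so its direction rests on single samples.

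The other Prelid3a probe set, 1437707_at, had 120, 115 and 143 units in VhlhKO samples, against 115, 94.4 and 93.3 units in control samples. VhlhKO 02 and control 01 were level, at 115.2 and 115.1 units, so the groups were separated by a margin of almost nothing. Its log2 difference was 0.32 (SE 0.44), or 0.18 without both samples numbered 03, and sample 02 was not low with this probe set as it was with 1425224_at.

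Prelid3b, the carrier of phosphatidylserine, had 1269, 1284 and 1546 units in VhlhKO samples, against 959, 1120 and 933 units in control samples. All VhlhKO samples lay above all control samples, the lowest being 1.13 times the highest control. The log2 difference was 0.44 (SE 0.27), a 1.36-fold difference that did not pass the threshold, and the pairs gave folds of 1.32, 1.15 and 1.66. VhlhKO 03, the sample with the highest matrix sum, was also the highest for Prelid3b, a relation that was not tested.

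Triap1, the small partner that binds and stabilises PRELI proteins in human cells, did not separate the genotypes. It had 1076, 1163 and 513 units in VhlhKO samples, against 1447, 965 and 398 units in control samples. Sample 03 was the lowest of each genotype, as it was for the acinar sum, and sample 01 was lower in VhlhKO while 02 and 03 were higher. The log2 difference was 0.07 (SE 0.51) with a 95% interval from -1.07 to 1.21, wide enough to hold a halving or a doubling of the level. Leaving out control 03 gave -0.45, and leaving out control 01 gave 0.48.

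In all, 10 of the 11 member probe sets were bright enough to be fitted, at least 1 for each gene. Of these 10, 1 passed the threshold of an adjusted p under 0.05, that of Prelid2, where 0.0173% of the 23093 fitted probe sets passed, 4 in all and each of them higher in VhlhKO. The 4 were 2 probe sets of Ak4, 1 of Prelid2 and 1 of Pgk1. For 5 of the 10 the VhlhKO signals lay above all control signals, against 3.36% of all fitted probe sets. All 10 had a positive log2 difference, against 48.0% of all fitted probe sets, and 9 of the 10 were higher in VhlhKO in each of the 3 pairs, against 12.1%. The exception was Triap1. The median difference was 0.53 over the 10 and -0.02 over all fitted probe sets. Since 5 of the 10 belong to Prelid1 and the genes were chosen with this comparison known, these counts describe the probe sets only.

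**Figure D2:**
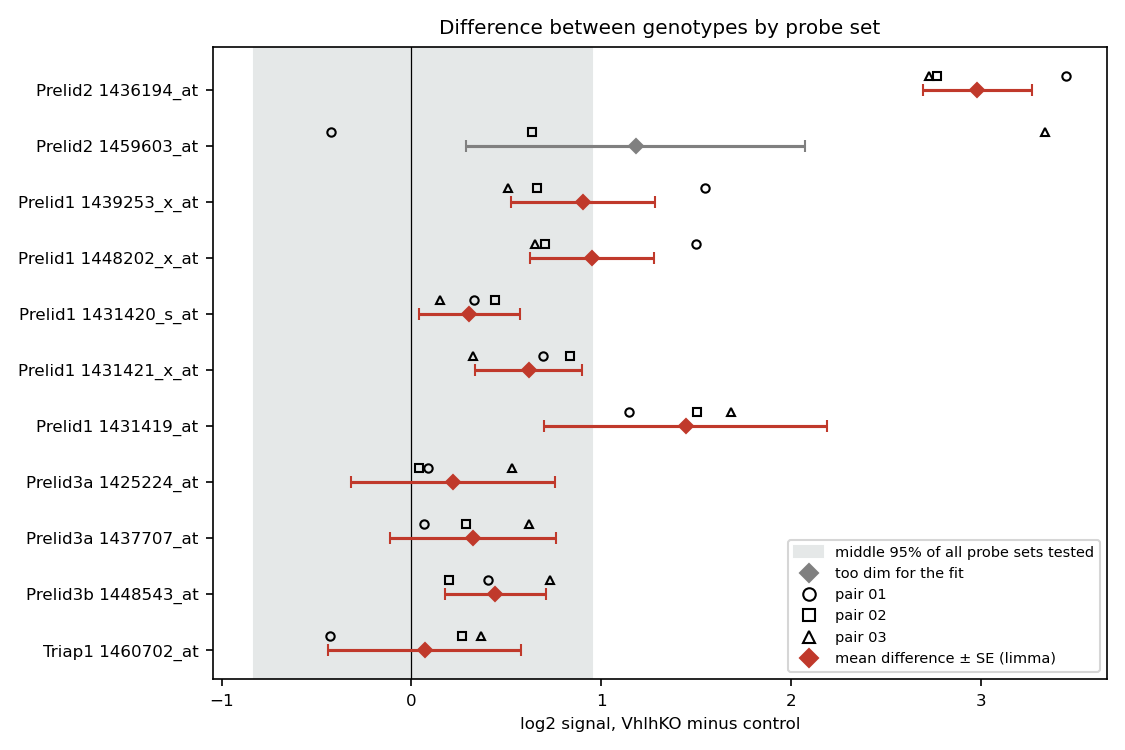
Log2 signal, VhlhKO minus control (x axis), for the 11 member probe sets (rows), with limma's standard error as bars, and the 3 same-numbered pairs as open symbols above each row. The grey band, from -0.83 to 0.95, holds the middle 95% of all fitted probe sets. The Prelid2 probe set 1436194_at lies at 2.98 with all its pairs above 2.7, the dim Prelid1 probe set 1431419_at lies at 1.45 and the dim second Prelid2 probe set at 1.18 with a wide error, and the others fall inside the band.

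The genes closest to Prelid2 over the 6 samples were also high in every VhlhKO sample. Pearson correlation of log2 signal with 1436194_at was computed for 19843 fitted probe sets of other genes, as a description of 6 samples that share the genotype contrast. The highest values were those of Hey1 (0.994), a transcriptional repressor of the Notch pathway, Ak4 (0.989), a mitochondrial adenylate kinase, Fam162a (0.984), a mitochondrial protein, Egln3 (0.983), an oxygen-dependent hydroxylase of HIF alpha subunits, and Atp7b (0.982), a copper-transporting ATPase. The 5 were picked for likeness to a probe set chosen for its genotype difference, so that they differ by genotype too follows from the choice. The probe sets of Ak4, Egln3 and Atp7b were above the array median on the 3 VhlhKO arrays alone and were compared only through that group, while Hey1 and Fam162a were above it on all 6. The log2 differences were 1.20 (SE 0.30) for Hey1, 3.31 (SE 0.32) for the Ak4 probe set, 1.54 (SE 0.27) for Fam162a, 3.66 (SE 0.45) for Egln3 and 1.65 (SE 0.44) for Atp7b.

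Hey1, the closest, had 420, 324 and 383 units in VhlhKO samples, against 153, 164 and 170 units in control samples. Like Prelid2, it had VhlhKO 01 as its highest and control 01 as its lowest sample. Among the members themselves, the correlation with 1436194_at over the 6 samples was 0.86 for Prelid3b and -0.04 for Triap1. The Prelid1 probe sets gave values from 0.56 (1431419_at) to 0.86 (1448202_x_at). Those of Prelid3a gave 0.23 (1425224_at) and 0.72 (1437707_at). Since 1436194_at was chosen for its genotype difference, these values restate in part how each probe set differed by genotype.

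Once each genotype's mean was subtracted, the correlation followed the variation inside the genotypes, where Prelid2 stayed within 0.3 of its means. The highest values were then those of Cops3 (0.9997), a subunit of the COP9 signalosome, Tmem25 (0.998), Mtfr1l (0.998), Rpl27 (0.997), a ribosomal protein, and Abcb10 (0.996), a mitochondrial transporter. These 5 were picked as the highest of 19843 correlations over 6 values with 2 means removed, so their near-perfect size is a description only. The probe sets of Tmem25 and Rpl27 have names ending in _x_at. That of Mtfr1l was above the array median on 2 VhlhKO arrays and 1 control array. No gene was in both groups of 5. Inside the genotypes the Prelid1 probe sets differed in sign, with 0.73 for 1439253_x_at, 0.63 for 1448202_x_at and 0.05 for 1431421_x_at. The other Prelid1 values were -0.28 for 1431420_s_at and -0.56 for 1431419_at. Prelid3a gave 0.25 (1425224_at) and -0.41 (1437707_at), Prelid3b gave -0.05 and Triap1 gave -0.72. Each of these correlations came from 6 values with 2 means removed.

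**Figure D3:**
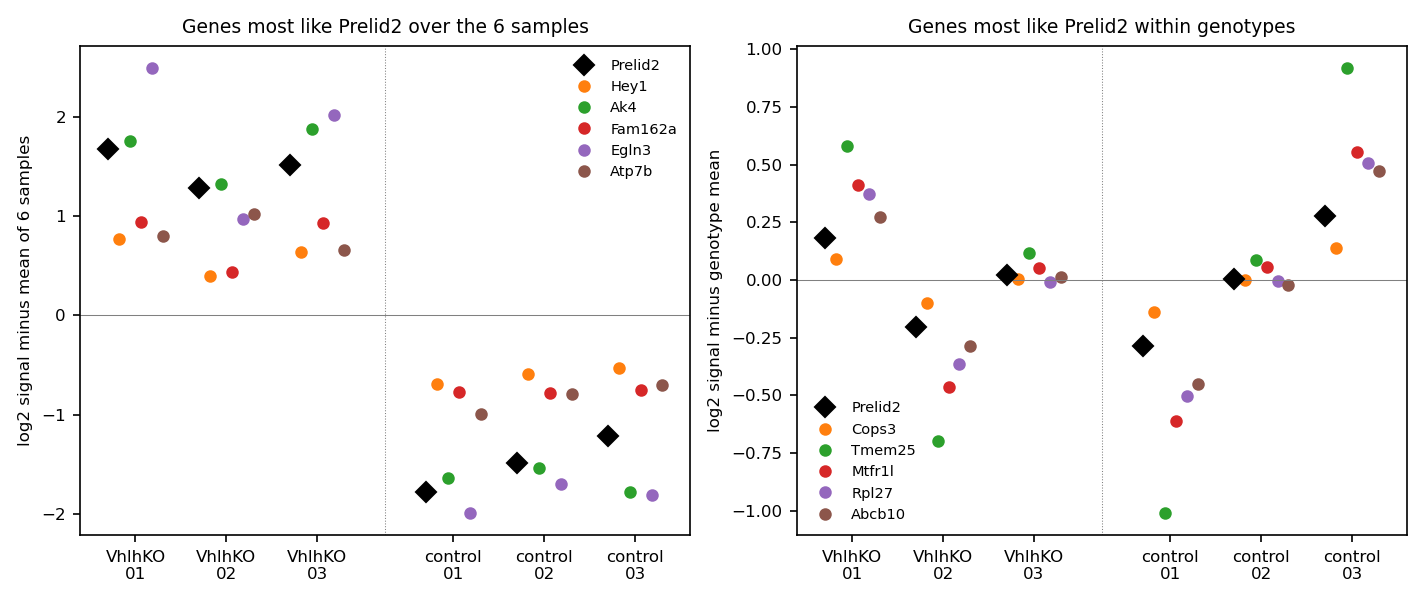
Log2 signal of Prelid2 (black diamonds) and of the 5 genes most correlated with it (coloured circles) in the 3 VhlhKO and the 3 control samples (x axis), as deviation from the mean of the 6 samples (left panel) and from the genotype mean (right panel). In the left panel Hey1, Ak4, Fam162a, Egln3 and Atp7b lie above 0 in each VhlhKO sample and below 0 in each control sample, as Prelid2 does. In the right panel Prelid2 stays within 0.3 of its genotype means.

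The neighbours of Prelid2 on chromosome 18 gave 1 gene with values. Of the 3 annotated genes on each side of it in the RefSeq table, 1 had a probe set with a single symbol, Sh3rf2, which encodes a ring finger protein with SH3 domains. Sh3rf2 had 112, 53.3 and 45.4 units in VhlhKO samples, against 62.5, 35.4 and 45.2 units in control samples. It was too dim to be fitted, and the groups overlapped.

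Of the genes that act before, after and around the PRELI carriers, none in the 7 lipid and mitochondrial lists below passed the threshold of the limma fit, and 0 of them had an unadjusted p under 0.05, where 2.17% of all fitted probe sets did. Their median log2 differences lay between -0.31 and 0.09. The -0.31 was the value of 1 gene, Sec14l1, the only one fitted in its list, and the next lowest median was -0.14. The median of the cardiolipin list was 0.06 without VhlhKO 03 and -0.35 without control 03. For each of these lists the shares over all fitted probe sets were 0.0173% passing and 48.0% positive. At so low a share, 0 passing says little about a list of this size. With a share of 2.17%, 0 at an unadjusted p under 0.05 also says little about lists this short. In the list of cardiolipin synthesis and remodelling, 0 of 13 fitted genes passed the threshold. Of the 13, 3 were higher and 10 lower in VhlhKO, with a median log2 difference of -0.07. Pgs1, which makes the phosphatidylglycerol phosphate precursor of cardiolipin, had 525, 432 and 369 units in VhlhKO samples, against 504, 381 and 259 units in control samples (log2 difference 0.25, SE 0.33). Crls1, the cardiolipin synthase, had 405, 971 and 431 units in VhlhKO samples, against 745, 971 and 567 units in control samples (-0.43, SE 0.40). Lclat1, an acyltransferase that can remodel cardiolipin, differed by 0.23 (SE 0.28) and Hadha, a subunit of the mitochondrial trifunctional protein of fatty acid oxidation, by -0.32 (SE 0.31).

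In the list of phosphatidylserine and phosphatidylethanolamine synthesis, 0 of 11 fitted genes passed, 2 were higher and 9 lower, and the median was -0.10. Pisd, the inner membrane enzyme that decarboxylates the phosphatidylserine delivered by PRELID3B, had 3267, 3547 and 2027 units in VhlhKO samples, against 3349, 3830 and 3815 units in control samples (-0.35, SE 0.29). Every pair was lower in VhlhKO for Pisd, yet the groups overlapped. Pcyt1a, which makes CDP-choline, differed by -0.37 (SE 0.41), Selenoi, an ethanolamine phosphotransferase, by 0.25 (SE 0.33) and Ptdss1, a phosphatidylserine synthase, by 0.01 (SE 0.25).

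The proteases and scaffolds of the inner membrane gave 0 of 10 passing, 4 higher and 6 lower, with a median of -0.13. Yme1l1, the protease that degrades PRELID1 when it is not bound to TRIAP1 in human cells, had 347, 833 and 1450 units in VhlhKO samples, against 851, 1361 and 950 units in control samples (-0.46, SE 0.49). Its VhlhKO samples spread over a wider range than its control samples and enclosed them. Afg3l2, a related protease, was lower in all VhlhKO samples than in all control samples (-0.46, SE 0.31). Lonp1, the matrix protease, had 3104, 2711 and 1789 units in VhlhKO samples, against 1805, 1841 and 912 units in control samples (0.77, SE 0.37). Phb2, a prohibitin of the inner membrane scaffold, differed by 0.29 (SE 0.33).

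The cristae-shaping MICOS complex and its partners gave 0 of 11 passing, 8 higher and 3 lower, with a median of 0.09. Chchd6, a MICOS subunit, differed by 0.44 (SE 0.32), the outer membrane assembly protein Samm50 by 0.29 (SE 0.46), Mtx2 by -0.37 (SE 0.34) and the MICOS subunit Apoo by -0.32 (SE 0.26). The list of small cysteine proteins of the intermembrane space, the class to which TRIAP1 belongs, and of their import gave 0 of 16 passing, 9 higher and 7 lower, with a median of 0.06. Its ends were Cmc2 (0.52, SE 0.46) and Cmc1 (0.36, SE 0.45), assembly factors of cytochrome c oxidase, and Timm9 (-0.69, SE 0.46) and Timm8b (-0.33, SE 0.36), small chaperones of the intermembrane space.

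Other routes of lipid transfer to mitochondria gave 0 of 15 passing, 7 higher and 8 lower, with a median of -0.14. Miga1, an outer membrane protein that promotes mitochondrial fusion, had 897, 882 and 951 units in VhlhKO samples, against 1302, 1340 and 1256 units in control samples (-0.51, SE 0.25). Those groups did not overlap, against 3.00% of fitted probe sets with all VhlhKO signals below all control signals. Tspo, the outer membrane translocator protein, had 1742, 1842 and 979 units in VhlhKO samples, against 1604, 1044 and 469 units in control samples (0.67, SE 0.47). Nme4, a cardiolipin-binding kinase, had 153, 70.7 and 94.1 units in VhlhKO samples, against 153, 136 and 12.5 units in control samples. Its difference of 0.66 (SE 0.97) rests on control 03 and was -0.52 without it. Vps13c, a bridge-like lipid transfer protein, differed by -0.77 (SE 0.65), by -0.21 without VhlhKO 02 and by -1.52 without VhlhKO 03. Sec14l1, a protein with a PRELI domain outside the family of small carriers, had 2021, 989 and 1276 units in VhlhKO samples, against 1839, 1301 and 2030 units in control samples (-0.31, SE 0.34), with overlap.

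The list of p53 and intrinsic apoptosis, fixed because TRIAP1 was first described as a p53-induced inhibitor of apoptosis, gave 0 of 12 passing (1 at an unadjusted p under 0.05, Bcl2, against 2.17% of all fitted probe sets), 9 higher and 3 lower, against 48.0% positive among all fitted probe sets, with a median of 0.19. Bcl2, an inhibitor of apoptosis, had 665, 916 and 1307 units in VhlhKO samples, against 243, 703 and 364 units in control samples (1.23, SE 0.43). Each pair was higher in VhlhKO, but VhlhKO 01 lay below control 02. Cdkn1a, the cell cycle inhibitor induced by p53, differed by 0.66 (SE 0.51), Bbc3, a p53-induced killer protein, by -0.23 (SE 0.78) and Mdm2, the ligase that degrades p53, by -0.10 (SE 0.50). Among the genes named from these lists, the sign of the difference turned for Pgs1, Selenoi, Ptdss1, Yme1l1, Samm50, Timm8b, Nme4, Bbc3 and Mdm2 when some single sample was left out.

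For comparison, the list of HIF-induced genes gave 1 of 21 passing, Ak4, against 0.0173% of all fitted probe sets, and 18 of 21 at an unadjusted p under 0.05, against 2.17%. It had 20 higher and 1 lower, against 48.0% positive among all fitted probe sets, and a median of 1.54, and 15 of the 21 had all VhlhKO signals above all control signals, against 3.36%. Ak4, Egln3 and Adm, which encodes the vasodilator peptide adrenomedullin, were above the array median on the 3 VhlhKO arrays alone and so entered the fit only through the group where they were high. With the filter that asks for all 6 arrays, 0 of the 18 genes left passed and their median was 1.32, and 0 of 21 passed without VhlhKO 01, without VhlhKO 03 or without control 01. At 2.98, Prelid2 lay between Ldha (2.95, SE 0.38) and Egln3 (3.66, SE 0.45) among the probe sets that stood for the list genes. Ldha, a lactate dehydrogenase subunit, is named here for its nearness in size after the values were seen. Probe sets of Ak4 (3.31) and Pgk1 (3.44) that did not stand for their genes lay between Prelid2 and Egln3. Vegfa, the vessel growth factor, was the 1 lower gene (-0.46, SE 0.28).

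**Figure D4:**
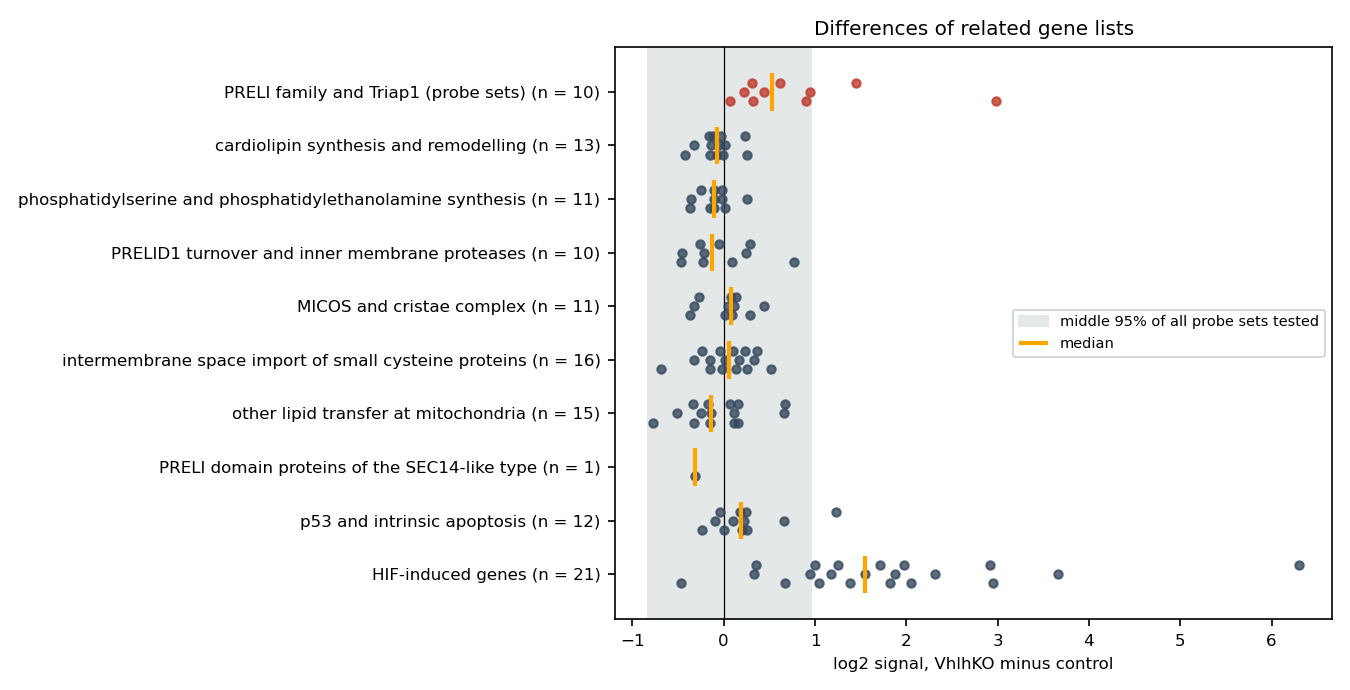
Log2 signal, VhlhKO minus control (x axis), of the 10 fitted member probe sets (red) and of the fitted genes of 9 related lists (blue, 1 point per gene, rows), with the median as an orange bar and the middle 95% of all fitted probe sets as a grey band. The medians of the 7 lipid and mitochondrial lists lie between -0.31, a list with 1 fitted gene (Sec14l1), and 0.09. That of the p53 and apoptosis list lies at 0.19, that of the members at 0.53 and that of the HIF-induced genes at 1.54.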

How the data were processed

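The authors deposited 1 linear signal intensity for each probe set, computed by the MAS5 algorithm; the submitters' processing notes name GCOS 1.4 and MAS5. Per the labels' protocols, 30 ng of total RNA was amplified by a two-cycle procedure. The 2% trimmed mean was 500.003 on every array. Of 45101 probe sets, 64 controls were left out. The platform annotation gave 34945 of the rest 1 symbol, 932 several and 9160 none, and Entrez identifiers matched 34741 to RefSeq symbols.

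Log2 signals, with nothing added, were fitted in R 4.3.3 with limma 3.58.1 (lmFit, eBayes with an intensity trend) for 23093 probe sets above the array median on at least 3 of 6 arrays. Benjamini-Hochberg adjustment ran over all of them, at a threshold of 0.05. The fit was also tried on simulated data with independent noise for each probe set. That setting left out the variation shared between probe sets and within pairs, and no value given here rests on it. Alternatives changed the brightness filter, the scaling, the pseudocount, the probe sets per gene, the trend, array weights, the replicate block and the samples included. A list gene was represented by its brightest probe set, leaving out _x_at names unless it had no other. The text names all members, the genes of a list that passed or had its largest differences in each direction, the closest patterns and the neighbours. Members and lists were chosen with earlier results of these data known.

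Deviations from the genotype means correlated at 0.11, 0.40 and 0.37 within the pairs numbered 01, 02 and 03, all above 0.1, so the numbers were taken to pair the samples by that rule together with the shared age and recorded sex. VhlhKO 02 with control 01 also reached 0.14. The main fit left the pairing out, so its standard errors, intervals and adjusted p-values are those of unpaired groups. A fit with the replicate number as a block was run as an alternative. Precision is limited by the number of arrays.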

Additional observations from a re-analysis of the deposited data

How the results depend on the processing

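The Prelid2 difference was between 2.67 and 3.12 in 17 alternatives. It passed the threshold in 10 of them. It stayed at 2.98 without the intensity trend but did not pass (0 member probe sets, and 2 of all probe sets, passed), and without both samples numbered 3 it was 3.11 with 0 passing of all. Leaving out 1 sample gave 2.84 to 3.12 and 0 or 1 member probe sets passing, since the call held without VhlhKO 02 alone. The count over all probe sets was 4, with 2 in the stricter filter, 2 with 1 probe set per gene, 3 with array medians set equal, 5 with a pseudocount of 50, 5 with array weights, and 0 to 6 when 1 sample was left out (0 without VhlhKO 01, VhlhKO 03 or control 01, 1 without control 03, 6 without VhlhKO 02). HIF-induced genes passing, counted by 1 probe set each, numbered 1. They numbered 0 in the stricter filter, 2 with array weights, 0 without both samples numbered 3 and 0 to 2 when 1 sample was left out. The replicate block left the count at 4 and the Prelid2 difference at 2.98 and changed no call of a member or list. Triap1 turned negative in 5 alternatives and Prelid3a 1425224_at in 2, and the other member probe sets stayed positive in all that held them. The cause of the lost calls was not tested.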
